A study of Mus musculus with 4 samples.

Results

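Adult Achilles tenotomy was compared with sham operation in 2 of the 4 RNA-seq libraries of the series, both from mice at 6 months of age. The genes described are those at or above 5 FPKM in either library, 9001 of the 23351 entries in the adult gene table. FPKM is the number of fragments per kilobase of transcript, scaled to the library. The tenotomy library was a pool of 9 mice whose right Achilles tendon had been cut, and the sham library was a pool of 5 mice sham operated on the left hindlimb. All mice were male Scx-EGFP homo mice on a C57BL/6 background, so both libraries carry that transgene, in which green fluorescent protein reports the tendon transcription factor Scx. RNA was taken 5 days after the operation. From the cut tendons the distal stump was collected without the connective tissue around it, whereas no such selection is described for sham tendons. The labels of both pools also call the tendon uninjured, and the operation they name was taken as the group. With 1 pool in each group, the spread between animals was not measured, no test was possible and no difference below has a replicate check. The hindlimb side, the number of mice and the dissection cannot be told apart from the operation.

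A tendon is a rope of type I collagen fibrils laid down by tenocytes, whose diameter and spacing are set by small leucine-rich proteoglycans, and which is wrapped in a sheath that lets it glide. A cut tendon bleeds, takes in phagocytes and fills with dividing mesenchymal cells that lay down a provisional matrix rich in hyaluronan, fibronectin and tenascin, before collagen is rebuilt. The cut also takes the load off the stump and off the calf muscle that pulls on it.

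Differences are given as log2((tenotomy FPKM + 1)/(sham FPKM + 1)), so that a positive value means higher after tenotomy. Folds are on the same FPKM + 1 scale, which understates differences of low genes. A gene was called higher or lower at 2-fold or more. By this rule 866 genes (9.62% of those measured) were higher and 1067 (11.9%) were lower, and 7068 lay within 2-fold. The median log2 ratio was -0.03, with quartiles at -0.55 and 0.46. A difference of 4-fold was passed by 148 higher and 158 lower genes, and one of 8-fold by 36 higher and 45 lower genes. Among genes with a mean of 100 FPKM or more, 31.1% of 441 were lower and 8.84% higher, whereas below a mean of 10 FPKM 8.83% of 3918 were lower and 11.0% higher. Small RNAs took 51.7% of all FPKM after tenotomy and 41.3% after sham. Rescaling both libraries without muscle genes and small RNAs gave 1217 higher and 750 lower genes, a setting that moved the median log2 ratio of all genes by 0.20, to 0.17. A 2 kb transcript at 5 FPKM was seen in about 24.1 fragments after tenotomy and 18.2 fragments after sham, from about 2410000 fragments in the tenotomy library and 1820000 in the sham library, worked out from the steps between low values. Genes near the floor thus rest on few fragments in both libraries.

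**Figure D1:**
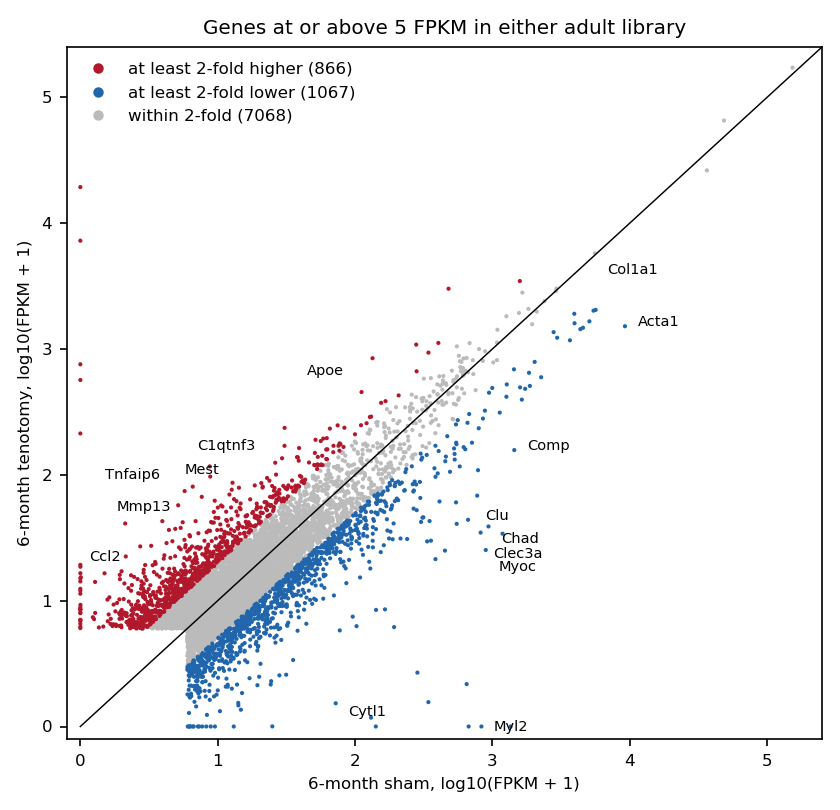
Every gene at or above 5 FPKM in either adult library, with log10(FPKM + 1) after tenotomy on the vertical axis and after sham on the horizontal axis. Red points are the 866 genes at least 2-fold higher, blue points the 1067 at least 2-fold lower and grey points the 7068 within 2-fold. Points with a vertical value of 0 are genes listed at 0 after tenotomy, and points with a horizontal value of 0 are genes listed at 0 after sham.

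Both libraries held tendon transcripts. Col1a1, the main tendon collagen chain, stood at 5766 FPKM after tenotomy and 5578 FPKM after sham, and the tendon markers Scx (5.695 FPKM after tenotomy and 15.9 FPKM after sham) and Tnmd (47.02 FPKM after tenotomy and 36.9 FPKM after sham) were present in both. Of 14 tenocyte genes measured, 0 were higher and 7 lower, with a median log2 ratio of -0.80. Several other cell types were represented too. All 22 mature muscle genes were lower, with a median of -1.84, and they made up 5.48% of ordinary-gene FPKM after tenotomy and 14.3% after sham. The slow-fibre genes Myl2, Myl3 and Myh7 had the lowest ratios of them. Myl2, the slow regulatory light chain, was listed at 0 after tenotomy but stood at 831 FPKM after sham. Slow and fast genes were not cleanly split. The fast myosin Myh2 (ratio -6.73) was lower than the slow troponin Tnnt1 (-4.17). The ratio nearest 0 was that of the fast parvalbumin gene Pvalb, at 1360.3 FPKM after tenotomy and 2791 FPKM after sham. Of 20 macrophage genes 18 were higher, with a summed level of 2335 FPKM after tenotomy and 632 FPKM after sham. All 5 measured neutrophil genes of 12 listed were higher (summed level 147 FPKM after tenotomy and 28.2 FPKM after sham), whereas none of 14 lymphocyte and none of 8 mast cell genes reached the floor. Both globin entries measured were higher, Hba-a1 and Hba-a2 together at 21.4 FPKM after tenotomy and 5.96 FPKM after sham, and their near-identical copies share reads. Of 12 endothelial genes 2 were higher, and the skin marker Krt14 stood at 0.844 FPKM after tenotomy and 14.04 FPKM after sham. In bulk tissue, fewer cells of a type and less RNA per cell cannot be told apart.

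The families below were counted over their members at or above the floor. A member low in sham could reach the floor only by being high after tenotomy, so the shares describe the measured members and not all that were listed. Of 66 lists with at least 5 measured members, 15 had a median past 2-fold in either direction. Among all measured genes 9.62% were higher and 11.9% lower. Families with counts near these shares, such as axon guidance, Notch and non-fibrillar collagens, do not stand apart from all genes by their counts.

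**Figure D2:**
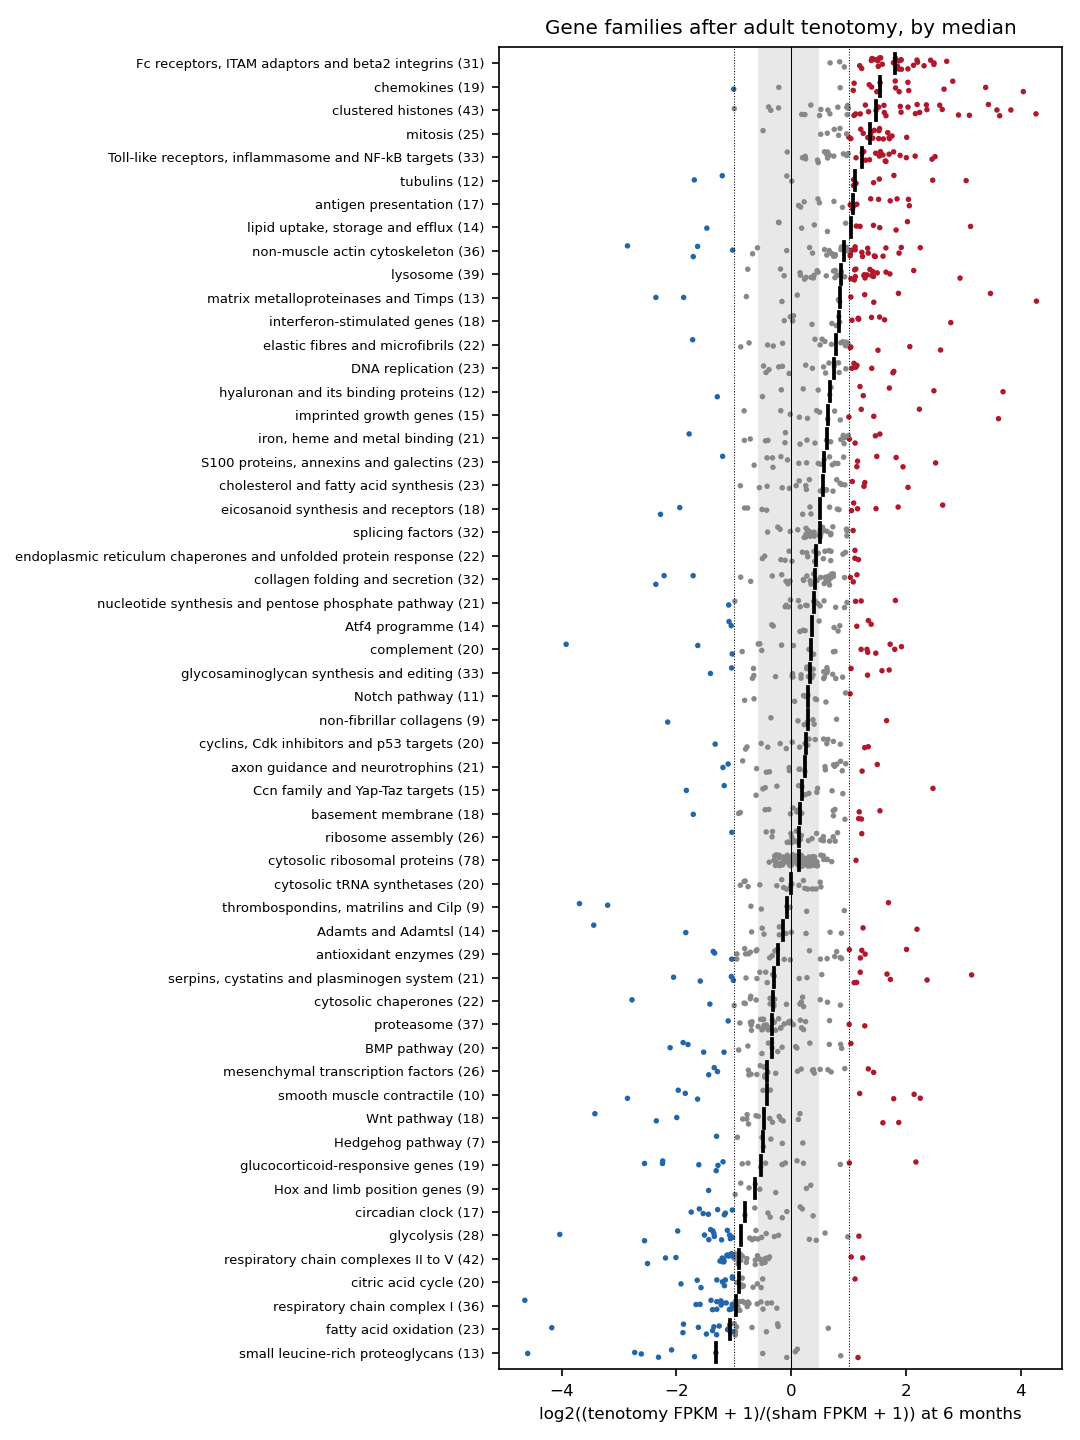
Log2 ratio of every measured member of each family, ordered by the family median (black bar), with the number of measured members in brackets. Red points are at least 2-fold higher and blue points at least 2-fold lower after tenotomy, dotted lines mark 2-fold and the grey band spans the quartiles of all 9001 genes, from -0.55 to 0.46. Fc receptor, chemokine and histone families lie to the right of the band, and the respiratory, fatty acid oxidation and small proteoglycan families to its left.

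Chemokines, the secreted proteins that draw leukocytes along a gradient to a wound, and their receptors were mostly higher. Of 37 listed, 19 were measured, 16 were higher and 1 was lower, with a median of 1.55. Ccl12 stood at 6.05 FPKM after tenotomy and was listed at 0 after sham, and Ccl2, a monocyte attractant, stood at 15.5 FPKM after tenotomy and was likewise listed at 0 after sham. Cxcl5, which draws neutrophils through the receptor Cxcr2, stood at 21.5 FPKM after tenotomy and 1.14 FPKM after sham. Pf4, a chemokine known from platelet granules, stood at 84.99 FPKM after tenotomy and 19.8 FPKM after sham, and the mesenchymal chemokine Cxcl12 at 148 FPKM after tenotomy and 49.995 FPKM after sham. Among the receptors Ccr1, Ccr2 and Cxcr4 were higher, whereas Cx3cr1 and Cxcr7 lay within 2-fold. Cxcr4, which binds Cxcl12, stood at 25.5 FPKM after tenotomy and 6.53 FPKM after sham, and Ccr2, which binds Ccl2, at 26.1 FPKM after tenotomy and 11.8 FPKM after sham. Ccl11, which attracts eosinophils, was the lower member (2.35 FPKM after tenotomy and 5.697 FPKM after sham).

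Fc receptors, which bind the tails of antibodies, signal through short tyrosine motifs on adaptor chains and, with the beta2 integrins and the phagocyte oxidase, equip cells to engulf and kill. This list had the highest median of the families, 1.82: of 39 listed, 31 were measured, 28 were higher and none was lower. The inhibitory receptor Fcgr2b stood at 61.3 FPKM after tenotomy and 8.52 FPKM after sham. The adaptor Tyrobp stood at 134 FPKM after tenotomy and 28.4 FPKM after sham and the Fc receptor chain Fcer1g at 56.1 FPKM after tenotomy and 9.59 FPKM after sham. Parts of the oxidase were higher together, the membrane subunit Cyba at 99.4 FPKM after tenotomy and 25.6 FPKM after sham and the cytosolic subunit Ncf4 at 21.9 FPKM after tenotomy and 3.09 FPKM after sham. Downstream kinases were higher as well, with Syk at 20.9 FPKM after tenotomy and 7.26 FPKM after sham. Of the 20 macrophage genes Fcgr3, Tyrobp and Itgam belong to this list too, and the part of the higher macrophage level in it was not tested.

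Among Toll-like receptors, inflammasome parts and NF-kB targets, 18 of 33 measured were higher and none lower (median 1.24). Ptx3, a soluble pattern-recognition protein, stood at 13.8 FPKM after tenotomy and 1.61 FPKM after sham, and Socs3, which damps cytokine signalling, at 53.9 FPKM after tenotomy and 9.02 FPKM after sham. Arg1, an enzyme that consumes arginine in alternatively activated mouse macrophages, stood at 15.1 FPKM after tenotomy and 2.602 FPKM after sham. The endosomal receptor Tlr8 (10.6 FPKM after tenotomy and 1.88 FPKM after sham) and the shared adaptor Myd88 (19.5 FPKM after tenotomy and 5.53 FPKM after sham) were higher, and so were the adhesion molecules Vcam1 (16.99 FPKM after tenotomy and 3.82 FPKM after sham) and Icam1 (17.8 FPKM after tenotomy and 4.75 FPKM after sham).

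Antigen presentation genes were higher in 10 of 17 measured, and none was lower (median 1.07). The class II chains H2-Aa (162 FPKM after tenotomy and 38.2 FPKM after sham), H2-Eb1 (93.4 FPKM after tenotomy and 21.9 FPKM after sham) and H2-Ab1 (137 FPKM after tenotomy and 37.3 FPKM after sham) had the largest ratios of those measured, followed by the invariant chain Cd74 (246 FPKM after tenotomy and 73.7 FPKM after sham). For class I, the light chain B2m and the heavy chain gene H2-D1 were higher by less. B2m stood at 209 FPKM after tenotomy and 98.9 FPKM after sham, and H2-D1 lay within 2-fold at 211 FPKM after tenotomy and 126 FPKM after sham. The class I gene H2-Q8, which is not in the list, stood at 5.05 FPKM after tenotomy and was listed at 0 after sham. Class I heavy chain genes such as H2-D1 belong to a family of near-identical copies, so their separate values are uncertain. In the proteasome, whose measured members had a median of -0.33, the immune subunits Psmb10 (11.5 FPKM after tenotomy and 4.14 FPKM after sham) and Psmb8 (10.8 FPKM after tenotomy and 4.87 FPKM after sham), which tune peptides for class I, were the 2 higher of 37.

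Interferon-stimulated genes were higher in 8 of 18 measured, with none lower and a median of 0.84. Isg15, a ubiquitin-like antiviral modifier, stood at 5.88 FPKM after tenotomy and was listed at 0 after sham. The abundant membrane protein gene Ifitm3 stood at 169 FPKM after tenotomy and 74.8 FPKM after sham.

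Complement, a protease cascade in plasma that marks particles for uptake, went both ways. Of 20 members measured, 7 were higher and 3 lower (median 0.35). The higher members were receptors and recognition parts: C3ar1, a receptor of the cleavage fragment C3a, stood at 25.4 FPKM after tenotomy and 5.96 FPKM after sham, the receptor C5ar1 at 16.1 FPKM after tenotomy and 3.89 FPKM after sham, and the C1q chain gene C1qb at 193 FPKM after tenotomy and 57.7 FPKM after sham. C1qb is also among the macrophage genes counted above. Lower members included a soluble regulator and a late component. Clusterin (Clu), a secreted chaperone that blocks the membrane attack complex, stood at 42.9 FPKM after tenotomy against 664 FPKM after sham, a ratio of -3.92. C7 stood at 12.95 FPKM after tenotomy and 27.4 FPKM after sham, and the central component C3 lay within 2-fold.

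Eicosanoids are lipid signals made from arachidonic acid. Of 18 genes of their synthesis and sensing measured, 6 were higher and 2 lower (median 0.51). Ptgs2, the inducible cyclooxygenase, stood at 6.99 FPKM after tenotomy and 0.282 FPKM after sham, and Tbxas1, thromboxane synthase, at 8.32 FPKM after tenotomy and 1.56 FPKM after sham. Alox5ap, which feeds 5-lipoxygenase for leukotrienes, stood at 48.8 FPKM after tenotomy and 16.9 FPKM after sham. By contrast Ptgis, prostacyclin synthase, stood at 36.03 FPKM after tenotomy and 141 FPKM after sham, and the secreted phospholipase gene Pla2g5 at 3.01 FPKM after tenotomy and 18.4 FPKM after sham. Among S100 proteins, annexins and galectins 6 of 23 were higher and 1 lower (median 0.58), with S100a11 at 232 FPKM after tenotomy and 64.6 FPKM after sham. The higher members S100a8 and S100a9 are also among the neutrophil genes counted above.

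Lysosomes digest what phagocytes take in, through cathepsins, glycosidases and lipases that work in acid. Of 39 lysosome genes measured, 18 were higher and none was lower (median 0.88), and summed over the list they stood at 3619 FPKM after tenotomy and 1807 FPKM after sham. Cathepsin S (Ctss), also among the macrophage genes counted above, had the largest ratio. Acp5, an acid phosphatase of macrophages and osteoclasts, stood at 54.04 FPKM after tenotomy and 11.5 FPKM after sham. Lgmn, the asparagine endopeptidase that processes cathepsins, stood at 185 FPKM after tenotomy and 55.3 FPKM after sham. Cathepsin K (Ctsk), which cleaves collagen, stood at 169 FPKM after tenotomy and 68.7 FPKM after sham. The proton pump subunit gene Atp6v1a stood at 36.7 FPKM after tenotomy and 13.05 FPKM after sham.

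Lysosomal genes are known for promoters with the E-box CACGTG, bound by factors of the Tfeb group. The windows of 250 bases before to 50 bases after the gene start in RefSeq (GRCm38.p6) were searched, and since CACGTG reads the same on both strands 1 search covers both. Here and below, a gene with several starts was counted if any of its windows held the motif. Of 30 measured lysosome genes with a window, 10 (33.3%) held the E-box, against 8.09% of 27025 genes. Among those that held it Atp6v1a, Ctsl, Gla and Lgmn were higher, and Atp6v0d1, Ctsa, Ctsd, Ctsf, Glb1 and Lamp1 lay within 2-fold. The windows of Ctss and Acp5, which had the highest ratios of the list, did not hold the E-box. Windows that hold the E-box are shown for 2 lysosome genes called higher, 5′ to 3′ in the gene's direction, with each E-box in capitals. Lgmn has 2 windows, and only the one shown holds the E-box.
Lgmn (chr12:102439043-102439342, minus strand): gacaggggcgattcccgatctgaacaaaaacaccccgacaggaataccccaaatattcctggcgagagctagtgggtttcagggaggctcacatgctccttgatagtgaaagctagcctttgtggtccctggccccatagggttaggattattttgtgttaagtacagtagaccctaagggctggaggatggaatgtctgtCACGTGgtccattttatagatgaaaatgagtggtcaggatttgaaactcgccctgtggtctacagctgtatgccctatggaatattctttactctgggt
Gla (chrX:134600956-134601255, minus strand): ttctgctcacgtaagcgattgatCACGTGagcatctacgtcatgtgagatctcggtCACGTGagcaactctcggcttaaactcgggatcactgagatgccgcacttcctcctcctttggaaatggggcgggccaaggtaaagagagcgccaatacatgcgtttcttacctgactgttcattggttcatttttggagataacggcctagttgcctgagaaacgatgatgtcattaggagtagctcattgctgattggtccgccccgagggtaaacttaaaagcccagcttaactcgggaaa
A match is a description of these letters and does not show that a factor binds there. Gla, alpha-galactosidase A, stood at 7.70004 FPKM after tenotomy and 1.76 FPKM after sham, and 2 E-boxes lie in its window.

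Genes of lipid uptake, storage and efflux were counted as 1 list. Of 14 measured, 7 were higher and 1 lower, with a median of 1.04. Fabp5, a fatty acid carrier, was 8.73-fold higher (65.9 FPKM after tenotomy and 6.66 FPKM after sham). Apoe, which carries cholesterol out of macrophages, stood at 454 FPKM after tenotomy and 111 FPKM after sham. Soat1, which esterifies cholesterol for storage, stood at 20.2 FPKM after tenotomy and 4.97 FPKM after sham, and the lipid droplet coat gene Plin2 at 73.8 FPKM after tenotomy and 24.6 FPKM after sham. The lower member was the lipoprotein receptor gene Vldlr (10.97 FPKM after tenotomy and 32.1 FPKM after sham). Cholesterol and fatty acid synthesis had 4 higher genes and none lower of 23 measured (median 0.55), among them the sterol carrier Stard4 and the sterol synthesis enzymes Sqle and Idi1. Stard4 stood at 5.32 FPKM after tenotomy and 1.59 FPKM after sham, Sqle at 6.13 FPKM after tenotomy and 1.96 FPKM after sham and Idi1 at 6.32 FPKM after tenotomy and 2.498 FPKM after sham. The 11 adipocyte genes measured held 3 lower and none higher. Lpl, lipoprotein lipase, was among the lower ones (31.2 FPKM after tenotomy and 93.2 FPKM after sham). The adipocyte list as a whole was not lower: 5 ratios lay above 0 and 6 below. Its median of -0.04 turned its sign under several settings. Its most abundant gene, Fabp4, lay within 2-fold at 227 FPKM after tenotomy and 127 FPKM after sham.

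Iron and metal genes were higher in 4 of 21 measured and lower in 1 (median 0.62). Slc11a1, the iron exporter of the phagosome membrane, stood at 12.7 FPKM after tenotomy and 3.69 FPKM after sham, and Slc39a14, a zinc and iron importer, at 59.7 FPKM after tenotomy and 20.9 FPKM after sham. Blvrb, a reductase of the heme breakdown pathway, stood at 20.9 FPKM after tenotomy and 9.12 FPKM after sham. Heme oxygenase Hmox1, which opens heme, was counted with the antioxidant enzymes and was the highest of them (58.2 FPKM after tenotomy and 13.7 FPKM after sham). Hfe2, the hemojuvelin gene expressed in skeletal muscle, was lower (52.1 FPKM after tenotomy and 181 FPKM after sham). In the antioxidant list 5 of 29 were higher and 3 lower, and its median of -0.23 turned to 0.01 under the scaling that leaves out muscle genes and small RNAs. Nqo1, a quinone reductase and a classical Nrf2 target, stood at 3.95 FPKM after tenotomy and 11.5 FPKM after sham, so that Hmox1 and Nqo1 lay on opposite sides.

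Genes of cell division formed a further higher block. Of 25 mitosis genes measured, of 42 listed, 18 were higher and none lower (median 1.37). Top2a, the topoisomerase that untangles sister chromosomes, stood at 16.9 FPKM after tenotomy and 3.43 FPKM after sham, and the chromosome passenger kinase Aurkb at 7.72 FPKM after tenotomy and 1.58 FPKM after sham. Birc5 (survivin), its partner, stood at 6.96 FPKM after tenotomy and 1.43 FPKM after sham, and the mitotic kinase Cdk1 at 7.58 FPKM after tenotomy and 1.67 FPKM after sham. DNA replication genes were higher in 7 of 23 measured of 39 listed, with none lower and a median of 0.75. Gins2, a helicase subunit, stood at 9.29 FPKM after tenotomy and 1.98 FPKM after sham, Uhrf1, a cofactor in copying DNA methylation, at 7.53 FPKM after tenotomy and 1.49 FPKM after sham, and the clamp Pcna at 52.3 FPKM after tenotomy and 24.5 FPKM after sham. For nucleotide synthesis 3 of 21 were higher and 1 lower (median 0.39), led by thymidine kinase Tk1 (12.8 FPKM after tenotomy and 2.92 FPKM after sham) and the ribonucleotide reductase subunit Rrm2 (13.1 FPKM after tenotomy and 5.04 FPKM after sham). The list of cyclins, Cdk inhibitors and p53 targets had 2 higher, 1 lower and a median of 0.26: the death effector Bax stood at 28.7 FPKM after tenotomy and 10.7 FPKM after sham and Ccng1 at 83.6 FPKM after tenotomy and 211 FPKM after sham.

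Promoters of genes used in G2 and mitosis are known for a short element, TTTGAA, that helps keep them silent until late in the cycle, and for CCAAT boxes. Both strands of the same windows were searched for each motif separately. TTTGAA was found for 15 of 19 mitosis genes with a window (78.9%), against 20.2% of all 27025 genes and 21.1% of 19 replication genes. Of the mitosis genes holding TTTGAA, Aurka, Bub1b, Cdc20 and Ncapd2 lay within 2-fold, whereas Birc5 and Ccnb1 were higher without it. CCAAT was found for 15 of the 19 mitosis genes (78.9%), against 41.1% of all genes. The Top2a and Cdk1 windows are shown, as these genes had the highest ratios of the mitosis genes found to hold TTTGAA. Both windows hold TTTGAA more than once. TTTGAA is in capitals, written TTCAAA where it lies on the other strand.
Top2a (chr11:99024140-99024439, minus strand): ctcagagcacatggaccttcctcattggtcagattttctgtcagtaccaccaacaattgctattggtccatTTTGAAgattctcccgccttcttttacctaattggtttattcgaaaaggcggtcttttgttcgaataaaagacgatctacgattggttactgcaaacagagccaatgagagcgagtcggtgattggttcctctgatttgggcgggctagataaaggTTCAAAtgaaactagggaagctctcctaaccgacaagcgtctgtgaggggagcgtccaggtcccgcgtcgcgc
Cdk1 (chr10:69352863-69353162, minus strand): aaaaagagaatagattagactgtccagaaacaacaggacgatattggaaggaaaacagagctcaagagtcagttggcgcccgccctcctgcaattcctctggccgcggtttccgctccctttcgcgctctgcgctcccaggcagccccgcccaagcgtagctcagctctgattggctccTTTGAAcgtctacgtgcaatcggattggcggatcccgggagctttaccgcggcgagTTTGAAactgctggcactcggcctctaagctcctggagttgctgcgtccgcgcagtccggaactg
In Cdk1 the copy nearest the start begins 15 bases before it, and in Top2a 23 bases before it.

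Core and linker histones package new DNA and are made in S phase from clustered genes whose messages mostly lack a poly(A) tail. The libraries were made after ribosomal RNA depletion, which does not select for tails. Of 68 clustered histone genes listed, 43 were measured, 27 were higher and none was lower (median 1.48). Hist1h3a stood at 18.2 FPKM after tenotomy and Hist1h2bj at 13.2 FPKM after tenotomy, and both were listed at 0 after sham. Hist1h3c stood at 75.2 FPKM after tenotomy and 11.7 FPKM after sham and Hist1h4j at 40.98 FPKM after tenotomy and 4.56 FPKM after sham. The abundant Hist1h4c lay within 2-fold, at 161 FPKM after tenotomy and 187 FPKM after sham, and so did the linker histone Hist1h1c, at 75.7 FPKM after tenotomy and 99.7 FPKM after sham. Summed over all 68, the list stood at 2186 FPKM after tenotomy and 1169 FPKM after sham. Histone genes are near-identical short copies that share reads, so the separate values are uncertain. The Hist1h2bj entry, for example, spans only chr13:22043230-22043610. At the same FPKM such a short gene rests on fewer fragments than the 2 kb transcript described above. A histone gene listed at 0 after sham therefore need not have been absent there.

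H2b genes are the histone genes known for an octamer, ATTTGCAT, which Oct1 binds. In the same windows, searched on both strands, 6 of 11 measured H2b genes held it (54.5%), against 11.1% of 27 other clustered histone genes and 1.97% of all genes. Those 6 were higher, but so were Hist1h2bj and Hist1h2bn, whose windows did not hold the octamer. The windows of 2 H2b genes called higher are shown with the octamer in capitals.
Hist1h2bk (chr13:22035571-22035870, plus strand): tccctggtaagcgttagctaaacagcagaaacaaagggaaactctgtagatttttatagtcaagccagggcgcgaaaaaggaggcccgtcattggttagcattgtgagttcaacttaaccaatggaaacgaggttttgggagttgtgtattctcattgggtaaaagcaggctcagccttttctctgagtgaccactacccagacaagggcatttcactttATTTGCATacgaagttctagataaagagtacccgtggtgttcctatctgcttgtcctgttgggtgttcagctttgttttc
Hist1h2bm (chr13:21721794-21722093, plus strand): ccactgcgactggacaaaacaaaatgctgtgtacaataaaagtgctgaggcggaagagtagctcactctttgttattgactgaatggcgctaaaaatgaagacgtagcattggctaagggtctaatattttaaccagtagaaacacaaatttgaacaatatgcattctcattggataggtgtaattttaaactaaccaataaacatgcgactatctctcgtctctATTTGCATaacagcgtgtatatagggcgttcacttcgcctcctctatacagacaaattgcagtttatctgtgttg
Hist1h2bk stood at 11.0 FPKM after tenotomy and was listed at 0 after sham, and Hist1h2bm stood at 41.8 FPKM after tenotomy and 2.95 FPKM after sham. The limit given above for short genes holds for these values too. In both the octamer begins 25 to 30 bases before the start.

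**Figure D3:**
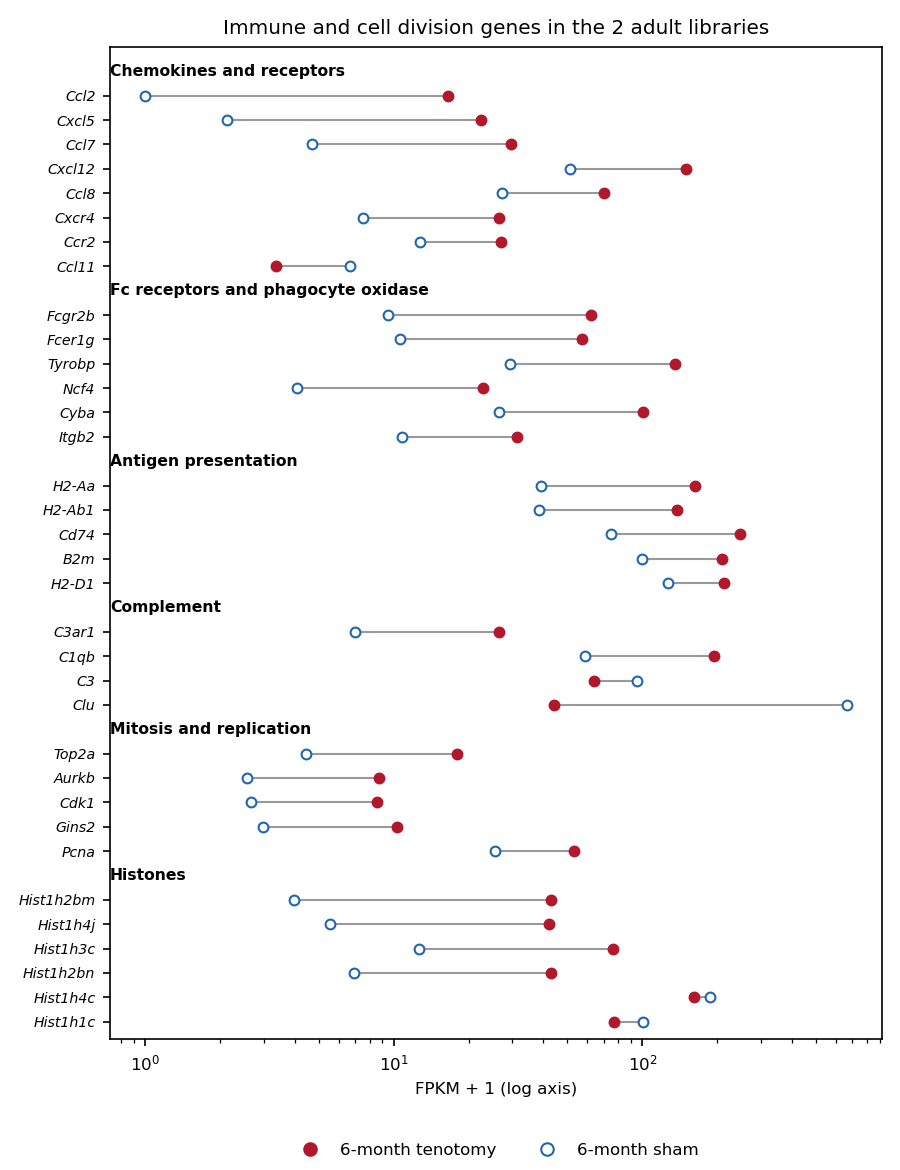
FPKM + 1 on a log axis for immune and cell division genes, with filled red points for the tenotomy library and open blue points for the sham library, 1 library each. Tenotomy values lie to the right for all genes drawn except Ccl11, C3, Clu, Hist1h4c and Hist1h1c, and Ccl2 lies at 1 in sham because it was listed at 0 FPKM there.

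Tendon matrix genes were split by role. Small leucine-rich proteoglycans, which bind collagen fibrils and set their width, had the lowest median of the families, -1.31: of 13 measured, 7 were lower and 1 was higher. Chad (chondroadherin), whose table entry spans chr11:94557102-94601786 in mm10, stood at 37.9 FPKM after tenotomy and 936 FPKM after sham. Osteomodulin (Omd) stood at 4.77 FPKM after tenotomy and 37.2 FPKM after sham, Prelp, which anchors matrix to cell surfaces, at 29.8 FPKM after tenotomy and 187 FPKM after sham, and Ecm2 at 7.03 FPKM after tenotomy and 33.04 FPKM after sham. Fibromodulin (Fmod) stood at 116 FPKM after tenotomy and 578 FPKM after sham and its fellow keratan sulphate proteoglycan keratocan (Kera) at 17.1 FPKM after tenotomy and 44.04 FPKM after sham. Decorin (Dcn), the main fibril-bound proteoglycan of tendon, stood at 494 FPKM after tenotomy and 1589.9 FPKM after sham, while its close relative biglycan (Bgn) stood at 547 FPKM after tenotomy and 519.6 FPKM after sham and lay within 2-fold. Lumican (Lum) also lay within 2-fold, at 169 FPKM after tenotomy and 157 FPKM after sham. Asporin (Aspn) alone among the measured members passed 2-fold upwards, at 247 FPKM after tenotomy and 109 FPKM after sham. The list was thus not lower throughout, since Bgn, Lum and Ogn had ratios of 0.07, 0.11 and -0.08.

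Among thrombospondins, matrilins and Cilp proteins the 2 lower genes of 9 measured were Comp and Cilp2, and Matn4 was the higher one (6.64 FPKM after tenotomy and 1.36 FPKM after sham). The other thrombospondins lay within 2-fold, Thbs2 at 122 FPKM after tenotomy and 63.5 FPKM after sham and Thbs4 at 392 FPKM after tenotomy and 563 FPKM after sham. Non-fibrillar collagens had 1 higher and 1 lower of 9 measured (median 0.29). Col8a1, a short-chain collagen of vessel walls, was the higher one (25.8 FPKM after tenotomy and 7.47 FPKM after sham). Col22a1, a collagen of the muscle and tendon junction, was the lower one (2.22 FPKM after tenotomy and 13.3 FPKM after sham). The 3 main type VI collagen chains lay within 2-fold, with Col6a1 at 195 FPKM after tenotomy and 166 FPKM after sham. Of 18 basement membrane genes 4 were higher and 1 lower, Lamb1 at 40.4 FPKM after tenotomy and 13.2 FPKM after sham and the muscle laminin chain Lama2 at 8.05 FPKM after tenotomy and 28.5 FPKM after sham.

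Elastic fibres, which let tissue recoil, are an elastin core on a scaffold of fibrillin. Of 22 genes measured, 5 were higher and 1 lower (median 0.78). Fbn2, the fibrillin of growing tissue, stood at 16.6 FPKM after tenotomy and 1.89 FPKM after sham, whereas the adult fibrillin Fbn1 stood at 151 FPKM after tenotomy and 103 FPKM after sham. Mfap4 stood at 35.03 FPKM after tenotomy and 7.59 FPKM after sham and Loxl1, which crosslinks elastin, at 33.2 FPKM after tenotomy and 10.97 FPKM after sham. Fibulin 1 (Fbln1) was the lower member, at 10.2 FPKM after tenotomy and 35.7 FPKM after sham.

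Hyaluronan is a sugar polymer that holds water in loose, early repair matrix. Of 12 genes measured, 5 were higher and 1 lower (median 0.68). Tnfaip6, which links hyaluronan to heavy chains and toughens it, was 12.9-fold higher (73.3 FPKM after tenotomy and 4.75 FPKM after sham). The synthases Has2 (12.3 FPKM after tenotomy and 1.37 FPKM after sham) and Has1 (12.6 FPKM after tenotomy and 4.69 FPKM after sham) and the receptor Cd44 (80.6 FPKM after tenotomy and 23.9 FPKM after sham) were higher too. So was Tmem2, a cell surface protein linked to hyaluronan breakdown (18.7 FPKM after tenotomy and 7.58 FPKM after sham). The hyaluronan link protein Hapln1 was lower (2.46 FPKM after tenotomy and 7.44 FPKM after sham), while the large proteoglycans versican (Vcan) and aggrecan (Acan) lay within 2-fold. For the enzymes that build and edit glycosaminoglycan chains, 4 of 33 were higher and 2 lower (median 0.34). The 3 highest act on chondroitin or on sulphation: Chsy1, which extends chondroitin chains, stood at 26.9 FPKM after tenotomy and 7.55 FPKM after sham, Csgalnact1, which starts them, at 23.8 FPKM after tenotomy and 7.27 FPKM after sham, and the sulphotransferase Chst2 at 5.45 FPKM after tenotomy and 1.56 FPKM after sham.

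Matrix metalloproteinases and their Timp inhibitors had 6 higher and 2 lower of 13 measured (median 0.85). The 2 lower genes were inhibitors, Timp3 (34.4 FPKM after tenotomy and 180.2 FPKM after sham) and Timp4 (1.01 FPKM after tenotomy and 6.37 FPKM after sham), whereas Timp1 was higher (118 FPKM after tenotomy and 57.002 FPKM after sham) and Timp2 lay within 2-fold (169 FPKM after tenotomy and 189 FPKM after sham). Among the enzymes Mmp13, a collagenase whose table entry spans chr9:7272514-7283333 in mm10, stood at 40.1 FPKM after tenotomy and 1.12 FPKM after sham, and Mmp19 at 12.98 FPKM after tenotomy and 4.15 FPKM after sham. Members of the Adamts family went both ways, with 2 higher and 2 lower of 14. Adamts4, an aggrecanase, stood at 7.23 FPKM after tenotomy and 0.7996 FPKM after sham and Adamts12 at 13.2 FPKM after tenotomy and 4.97 FPKM after sham, while Adamts8 stood at 0.3598 FPKM after tenotomy and 13.8 FPKM after sham and Adamtsl5 at 4.404 FPKM after tenotomy and 18.3 FPKM after sham. The other main aggrecanase, Adamts5, lay within 2-fold.

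Serpins, cystatins and the plasminogen system had 7 higher and 4 lower of 21 measured. Their median of -0.29 turned to 0.25 under that scaling too. The plasminogen activator Plau stood at 33.2 FPKM after tenotomy and 14.5 FPKM after sham and its receptor Plaur at 15.4 FPKM after tenotomy and 4.17 FPKM after sham. Tfpi2, a Kunitz inhibitor, stood at 7.85 FPKM after tenotomy and was listed at 0 after sham. Cystatin C (Cst3), a secreted inhibitor of cathepsins, stood at 395 FPKM after tenotomy and 1638 FPKM after sham, whereas cystatin B (Cstb), which acts inside cells, stood at 38.5 FPKM after tenotomy and 10.9 FPKM after sham. Serpine2, which inhibits thrombin and plasminogen activators, stood at 55.4 FPKM after tenotomy and 168 FPKM after sham.

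The machinery that folds and ships collagen was mostly within 2-fold. Of 32 genes measured, 3 were higher and 3 lower (median 0.42). The collagen chaperone Serpinh1 stood at 289 FPKM after tenotomy and 130.0 FPKM after sham, the prolyl 3-hydroxylase Lepre1 at 24.6 FPKM after tenotomy and 11.1 FPKM after sham and the prolyl 4-hydroxylase subunit P4ha3 at 22.1 FPKM after tenotomy and 10.3 FPKM after sham. On the lower side the procollagen processing enhancer Pcolce2 stood at 9.13 FPKM after tenotomy and 50.9 FPKM after sham, the prolyl 3-hydroxylase Leprel1 at 6.02 FPKM after tenotomy and 21.9 FPKM after sham and Tmem38b, a potassium channel of the endoplasmic reticulum, at 7.27 FPKM after tenotomy and 37.3 FPKM after sham. The abundant enhancer Pcolce lay within 2-fold. Chaperones of the endoplasmic reticulum had 3 higher and none lower of 22 (median 0.44), namely Edem1, Pdia4 and Pdia3 (87.1 FPKM after tenotomy and 39.8 FPKM after sham).

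Signalling families were mixed, with small counts. In the Wnt pathway 2 of 18 measured genes were higher and 3 lower (median -0.47), and 54 had been listed. All but 1 of these 5 encode secreted Wnt-binding antagonists. Sfrp1 (35.4 FPKM after tenotomy and 8.92 FPKM after sham) and Sfrp2 (77.6 FPKM after tenotomy and 24.9 FPKM after sham) were higher. Frzb (4.08 FPKM after tenotomy and 24.9 FPKM after sham) and Wif1 (4.03 FPKM after tenotomy and 19.02 FPKM after sham) were lower, and so was the receptor Fzd9 (1.29 FPKM after tenotomy and 23.5 FPKM after sham). In the BMP pathway 1 of 20 was higher and 5 were lower (median -0.34). The ligand Bmp2 stood at 4.26 FPKM after tenotomy and 14.1 FPKM after sham, the antagonists Chrd (2.94 FPKM after tenotomy and 13.5 FPKM after sham) and Grem1 (0.571 FPKM after tenotomy and 5.78 FPKM after sham) were lower, and the BMP target genes Id1 (14.97 FPKM after tenotomy and 34.9 FPKM after sham) and Smad6 (2.23 FPKM after tenotomy and 10.2 FPKM after sham) were lower as well. The higher one was Fstl1, a follistatin-like secreted protein (427 FPKM after tenotomy and 207 FPKM after sham).

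Of 7 Hedgehog pathway genes measured, 1 was lower, the co-receptor Gas1 (36.5 FPKM after tenotomy and 91.3 FPKM after sham), and none was higher. In the Notch pathway 1 of 11 was higher, the receptor Notch1 (9.22 FPKM after tenotomy and 4.01 FPKM after sham), with a median of 0.29. Of 15 Ccn family and Yap-Taz genes 1 was higher (Wisp1) and 2 were lower, Tead1 (16.2 FPKM after tenotomy and 37.7 FPKM after sham) and Ankrd1 (5.78 FPKM after tenotomy and 23.02 FPKM after sham), a stretch-responsive gene of muscle. The Yap-Taz targets Ctgf and Cyr61 lay within 2-fold, Ctgf at 159.7 FPKM after tenotomy and 244 FPKM after sham. Axon guidance genes had 2 higher and 2 lower of 21 (median 0.24), with Sema7a at 15.1 FPKM after tenotomy and 4.695 FPKM after sham and Sema3d at 3.45 FPKM after tenotomy and 9.15 FPKM after sham.

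Imprinted growth genes had 5 higher and none lower of 15 measured (median 0.64). The 3 highest are expressed from the paternal copy: Mest stood at 79.6 FPKM after tenotomy and 5.58 FPKM after sham, the fetal growth factor Igf2 at 41.1 FPKM after tenotomy and 7.96 FPKM after sham, and the zinc finger gene Plagl1 at 6.18 FPKM after tenotomy and 1.65 FPKM after sham. The maternally expressed adaptor Grb10, which damps insulin receptor signalling, stood at 55.4 FPKM after tenotomy and 23.2 FPKM after sham. H19, the noncoding neighbour of Igf2, lay within 2-fold at 132 FPKM after tenotomy and 108 FPKM after sham, and Meg3 stood at 39.1 FPKM after tenotomy and 39.6 FPKM after sham.

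Transcription factors of mesenchyme had 2 higher and 3 lower of 26 measured. Runx1, a factor of blood and mesenchymal progenitors, stood at 46.5 FPKM after tenotomy and 17.7 FPKM after sham, and Snai1, a factor of mesenchymal transition, at 10.4 FPKM after tenotomy and 3.198 FPKM after sham. The lower ones were the tendon factors Scx and Mkx (9.598 FPKM after tenotomy and 24.8 FPKM after sham) and Sox6 (7.69 FPKM after tenotomy and 22.5 FPKM after sham). Of 47 Hox and limb position genes listed, 9 were measured and 1 was lower, Hoxd9 (3.68 FPKM after tenotomy and 11.7 FPKM after sham), while the hindlimb gene Pitx1 stood at 3.84 FPKM after tenotomy and 7.899 FPKM after sham.

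**Figure D4:**
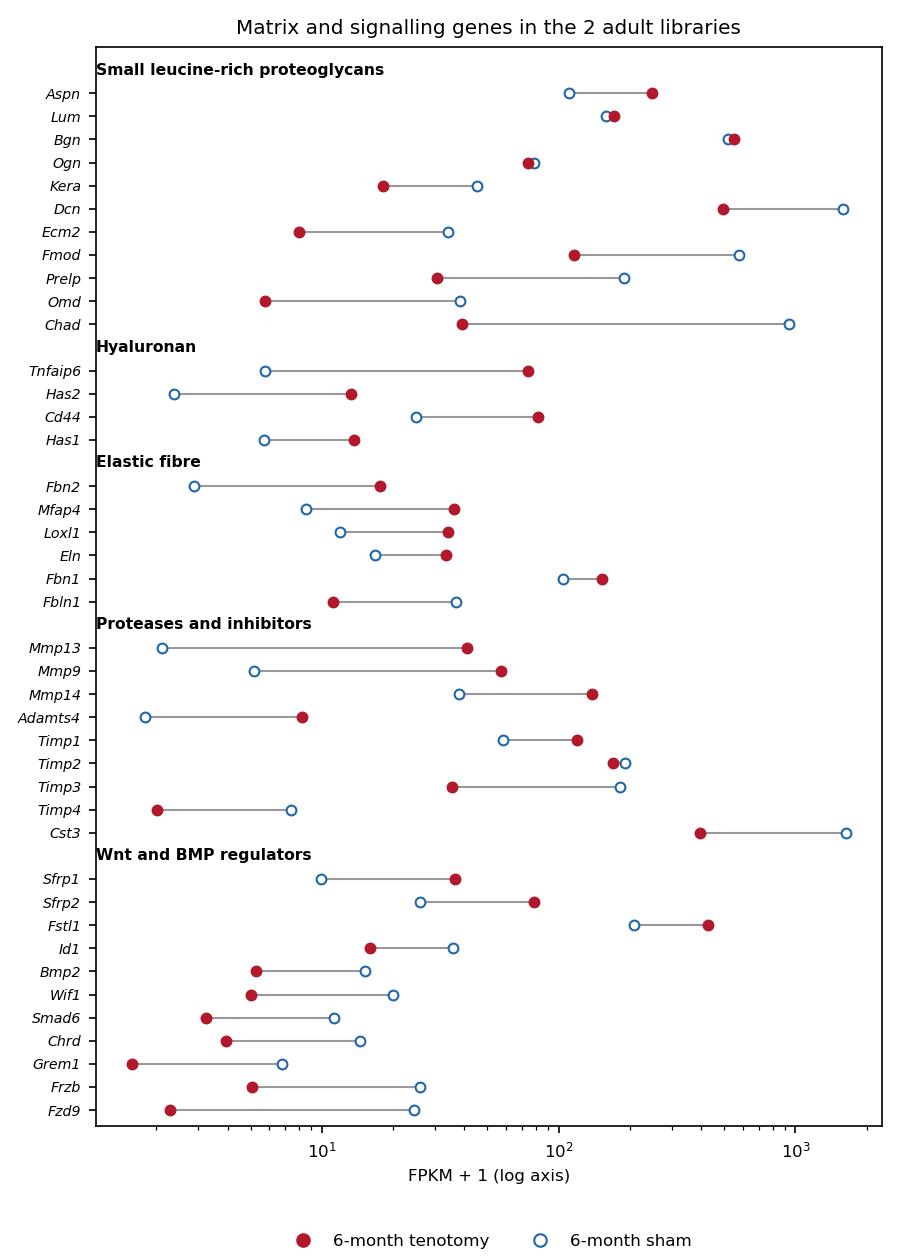
FPKM + 1 on a log axis for matrix and signalling genes, with filled red points for the tenotomy library and open blue points for the sham library, 1 library each. Decorin, fibromodulin and chondroadherin lie far lower after tenotomy, whereas asporin, the hyaluronan genes drawn and Mmp13 lie higher, and biglycan, lumican and Timp2 nearly coincide.

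The non-muscle actin cytoskeleton, which moves and shapes cells, had 16 higher and 4 lower of 36 measured (median 0.92). Myl9, the regulatory light chain of non-muscle and smooth muscle myosin, stood at 24.6 FPKM after tenotomy and 4.38 FPKM after sham. Cytoplasmic actin Actb stood at 935 FPKM after tenotomy and 341 FPKM after sham and Actg1 at 664 FPKM after tenotomy and 279.8 FPKM after sham. The actin-sequestering thymosins Tmsb10 (189 FPKM after tenotomy and 50.6 FPKM after sham) and Tmsb4x (1116 FPKM after tenotomy and 403 FPKM after sham), cofilin Cfl1 (195 FPKM after tenotomy and 61.3 FPKM after sham) and the focal adhesion protein zyxin (Zyx; 32.9 FPKM after tenotomy and 10.2 FPKM after sham) were higher as well. All 4 lower members are ones that skeletal muscle uses: the tropomyosins Tpm1, Tpm2 and Tpm3 and filamin C (Flnc; 36.4 FPKM after tenotomy and 121 FPKM after sham). Smooth muscle contractile genes had 4 higher and 4 lower of 10, and Myl9, Tpm1 and Tpm2 are counted in both lists. Acta2 (49.9 FPKM after tenotomy and 10.5 FPKM after sham) and Tagln (35.6 FPKM after tenotomy and 9.59 FPKM after sham) were also higher. Desmin (Des, 482 FPKM after tenotomy and 1733 FPKM after sham) and Synpo2 (12.2 FPKM after tenotomy and 50.6 FPKM after sham) were also lower.

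Tubulins build microtubules and the mitotic spindle. Of 12 tubulin genes measured, 8 were higher and 2 lower (median 1.11). Tuba1c stood at 15.04 FPKM after tenotomy and 0.936 FPKM after sham, Tubb6 at 77.97 FPKM after tenotomy and 13.3 FPKM after sham and Tubb2b at 13.6 FPKM after tenotomy and 3.22 FPKM after sham, and the abundant Tubb5 at 132 FPKM after tenotomy and 61.5 FPKM after sham. The lower ones, Tuba4a (49.7 FPKM after tenotomy and 162 FPKM after sham) and Tuba8 (27.99 FPKM after tenotomy and 65.6 FPKM after sham), are isotypes found in muscle. Tubulin copies share sequence, so reads may have been split between them.

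Energy metabolism genes that passed 2-fold were mostly lower. Of 36 complex I subunits 16 were lower and none higher (median -0.96), and of 42 subunits of complexes II to V 15 were lower and 2 higher (median -0.90). Ndufa12 stood at 60.8 FPKM after tenotomy and 194 FPKM after sham and the ATP synthase subunit Atp5b at 271 FPKM after tenotomy and 559 FPKM after sham. Ndufs5 was at 0.0023 FPKM after tenotomy and 24.0 FPKM after sham, whereas the lowest ratio among its partners was -1.66. A value that close to 0 can come from how shared reads were assigned, which was not tested, so the Ndufs5 difference is uncertain. In the citric acid cycle 9 of 20 were lower and 1 higher (median -0.91), with Idh2 at 27.4 FPKM after tenotomy and 106 FPKM after sham and the cytosolic enzyme Idh1, the higher one, at 28.5 FPKM after tenotomy and 12.6 FPKM after sham. Fatty acid oxidation had 14 lower of 23 and none higher (median -1.07). Fabp3, the heart and muscle fatty acid binding protein, stood at 20.4 FPKM after tenotomy and 384 FPKM after sham, and the muscle carnitine transferase Cpt1b at 10.5 FPKM after tenotomy and 41.6 FPKM after sham. Ppargc1a, a coactivator of mitochondrial genes, stood at 0.723 FPKM after tenotomy and 5.32 FPKM after sham. In glycolysis 14 of 28 were lower and 1 higher (median -0.87). Gapdh stood at 789 FPKM after tenotomy and 2031 FPKM after sham, Ldhb, the lactate dehydrogenase of oxidative tissue, at 5.27 FPKM after tenotomy and 102 FPKM after sham, and Pdk4, which closes pyruvate entry to mitochondria, at 26.6 FPKM after tenotomy and 161 FPKM after sham.

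Some pairs of a widely used and a muscle isoform, chosen after their values were seen, lay on opposite sides. Other widely used members were lower, as Atp5b and Gapdh above. Cox6a1, the liver type subunit of cytochrome oxidase, stood at 75.6 FPKM after tenotomy and 36.1 FPKM after sham, and its muscle partner Cox6a2 at 30.2 FPKM after tenotomy and 176 FPKM after sham. Cox8a, the widely used partner, stood at 95.4 FPKM after tenotomy and 39.6 FPKM after sham, and the muscle partner Cox8b at 131 FPKM after tenotomy and 531 FPKM after sham. Of the enolases Eno1, listed together with the copy Gm5506, stood at 120.2 FPKM after tenotomy and 52.4 FPKM after sham, and the muscle enolase Eno3 at 688 FPKM after tenotomy and 1435 FPKM after sham. Of the phosphoglycerate mutases Pgam1 stood at 58.9 FPKM after tenotomy and 29.2 FPKM after sham, just within 2-fold (0.99), and the muscle form Pgam2 at 250.5 FPKM after tenotomy and 542 FPKM after sham. Tropomyosin Tpm4 stood at 159 FPKM after tenotomy and 61.9 FPKM after sham, while the muscle-abundant Tpm1 stood at 1474 FPKM after tenotomy and 4566 FPKM after sham. The 22 mature muscle genes, summed at 15640.3 FPKM after tenotomy and 51466 FPKM after sham, were lower beside all of these families, with Myl2 at 0 after tenotomy, and their part in the metabolic values was not tested.

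Circadian clock genes had 8 lower and none higher of 17 measured (median -0.81). Among the lower genes were the repressors Cry2, Per3 and Nr1d1 and the outputs Dbp, Tef and Usp2. The repressor Cry2 stood at 8.45 FPKM after tenotomy and 27.6 FPKM after sham. Nr1d1, the Rev-erb repressor, stood at 7.12 FPKM after tenotomy and 21.04 FPKM after sham, Per3 at 6.66 FPKM after tenotomy and 15.9 FPKM after sham and the output factor Dbp at 8.34 FPKM after tenotomy and 17.996 FPKM after sham. Arntl itself, part of the activating pair, stood at 6.99 FPKM after tenotomy and 5.13 FPKM after sham, and Per1 at 18.4 FPKM after tenotomy and 20.6 FPKM after sham, both within 2-fold. The E-box CACGTG, which the clock's activating pair binds, was found in the windows of 4 of 14 measured clock genes (28.6%), against 8.09% of all genes. Of these Tef was lower, and Bhlhe41, Cry1 and Per1 lay within 2-fold. The windows of the lower genes Cry2, Dbp, Nr1d1, Per3, Rora and Usp2 did not hold it. At what time of day tissue was collected is not stated in those labels.

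Genes known to be induced by glucocorticoids were lower in 7 of 19 and higher in 2 (median -0.53). Zbtb16 stood at 11.6 FPKM after tenotomy and 58.8 FPKM after sham, Klf15 at 2.36 FPKM after tenotomy and 14.8 FPKM after sham, and Tsc22d3, which encodes the leucine zipper protein Gilz, at 74.5 FPKM after tenotomy and 229 FPKM after sham. The co-chaperone Fkbp5 stood at 16.9 FPKM after tenotomy and 39.8 FPKM after sham. Angptl4, a lipase inhibitor also induced by hypoxia and fatty acids, was the highest of the list (60.8 FPKM after tenotomy and 12.7 FPKM after sham). Pdk4 and Klf15 are also genes of fasting muscle, and the lower muscle level stood beside these values.

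**Figure D5:**
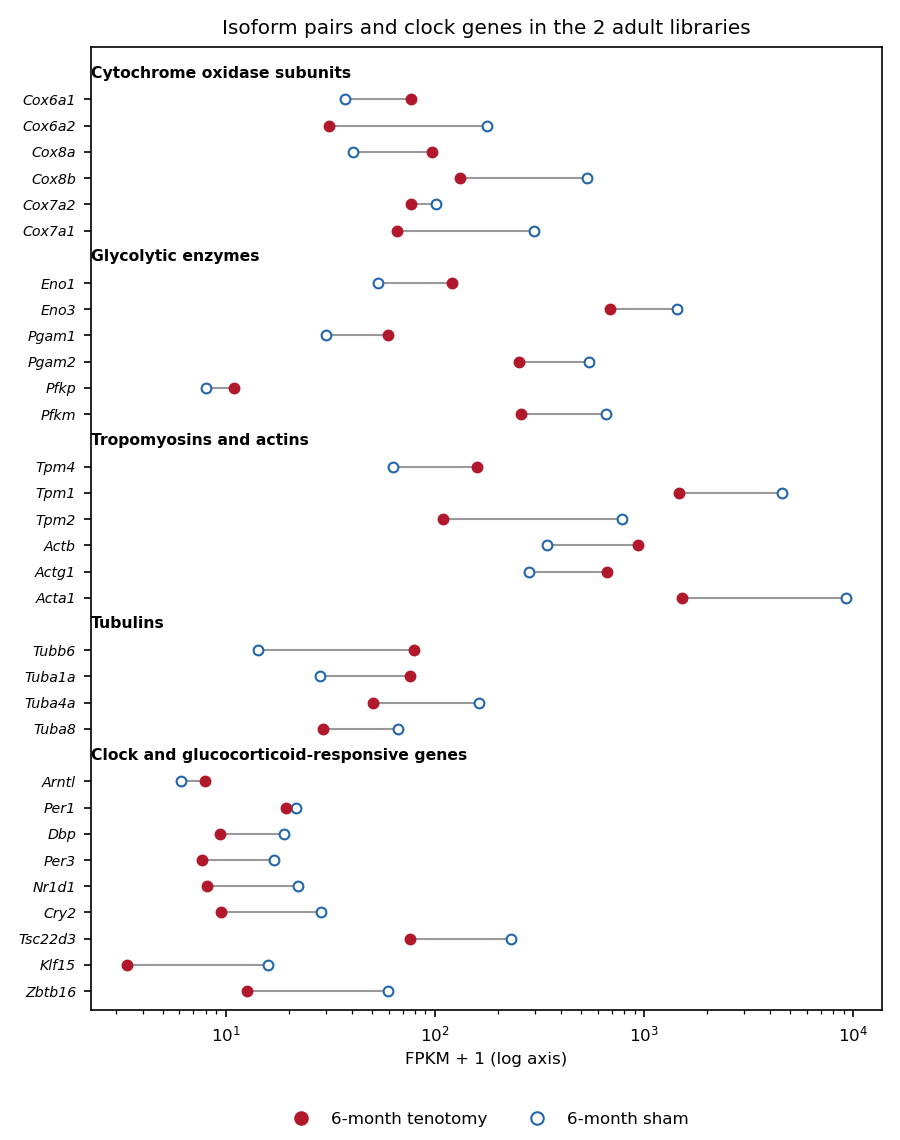
FPKM + 1 on a log axis for pairs of related isoforms and for clock and glucocorticoid-responsive genes, with filled red points for the tenotomy library and open blue points for the sham library, 1 library each. Cox6a1, Cox8a, Eno1, Tpm4 and Tubb6 lie higher after tenotomy, whereas Cox6a2, Cox8b, Eno3, Tpm1 and Tuba4a lie lower, and the clock genes drawn lie lower except Arntl.

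Families that serve every cell were counted as well. Of 78 cytosolic ribosomal protein genes measured, 77 lay within 2-fold and 1, the short Rpl41, was higher (3468 FPKM after tenotomy and 1583 FPKM after sham), with a median of 0.14. None of 20 cytosolic tRNA synthetase genes passed 2-fold. Ribosome assembly factors had 1 higher and 1 lower of 26 (median 0.14), Nop58 at 15.3 FPKM after tenotomy and 5.93 FPKM after sham and Rrp12 at 4.696 FPKM after tenotomy and 10.7 FPKM after sham. Splicing factors had 1 higher of 32, and their median of 0.50 lay above the upper quartile of all genes. The proteasome had 1 lower gene, Psmb3, beside its 2 higher immune subunits. Cytosolic chaperones had 2 lower of 22 and none higher (median -0.31), the small heat shock genes Cryab (44.97 FPKM after tenotomy and 313 FPKM after sham) and Hspb1 (33.2 FPKM after tenotomy and 90.2 FPKM after sham), both abundant in muscle. In the Atf4 programme of amino acid supply 3 of 14 were higher and 2 lower, with Phgdh, which starts serine synthesis, at 8.61 FPKM after tenotomy and 2.65 FPKM after sham and Atf5 at 20.6 FPKM after tenotomy and 44.7 FPKM after sham, and the sign of its median (0.37) turned with a floor of 20 FPKM (-0.45).

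The 15 highest and 15 lowest genes at 10 FPKM or more were taken after leaving out small RNAs, predicted genes, mitochondrially encoded genes and entries that join several genes, and several of them belonged to no family above. C1qtnf3, a secreted C1q-like protein of growing cartilage and fibroblasts, was 13.3-fold higher (116 FPKM after tenotomy and 7.74 FPKM after sham). Mdk (midkine), a heparin-binding growth factor of development and repair, stood at 10.4 FPKM after tenotomy and was listed at 0 after sham. Cks2, a subunit of cyclin-dependent kinases, stood at 14.05 FPKM after tenotomy and was likewise listed at 0 after sham. Hmga1, an architectural chromatin protein, stood at 17.6 FPKM after tenotomy and 0.0010 FPKM after sham. The doubt given for Ndufs5 holds for this value too. At the other end Cytl1, a secreted protein of cartilage, stood at 0.529 FPKM after tenotomy and 71.3 FPKM after sham, Myoc (myocilin) at 24.3 FPKM after tenotomy and 894 FPKM after sham and Clec3a, a cartilage lectin, at 33.8 FPKM after tenotomy and 820.3 FPKM after sham. Of the 8 chondrocyte and bone-forming genes measured 6 were lower and none higher, with a summed level of 418 FPKM after tenotomy and 1704 FPKM after sham.

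Counts of the families at 7 days of age, where 5.55% of 9424 measured genes were higher and 10.3% lower, were set beside the adult counts. The neonatal pools of 11 mice each had the same operations and the same interval. Small leucine-rich proteoglycans had 1 higher and 7 lower of 13 measured in adults (median -1.31), and in neonates 4 higher and 2 lower of 12 measured, median 0.10. The chondrocyte and bone-forming list had none higher and 6 lower of 8 in adults (median -1.86), and in neonates 6 higher and 1 lower of 9 measured, median 1.36. Imprinted growth genes had 5 higher and none lower of 15 in adults, and in neonates 2 higher and 6 lower of 19 measured, median -0.20. Clustered histones had 27 higher of 43 in adults, and in neonates 4 higher and 0 lower of 47 measured, median 0.38. The lysosome list had a median of 0.88 in adults, and in neonates 13 higher and 0 lower of 39 measured, median 0.85. Of the 747 genes higher in adults among 8348 measured at both ages, 236 (31.6%) were higher in neonates too, which is 54.6% of the 432 higher there. Of the 873 lower in adults, 500 (57.3%) were lower in neonates, or 61.9% of the 808 lower there. These differences between ages were not tested.

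The authors' deposited table gave no gene as significant among 8897 genes with a usable status. Its p-values were under 0.05 for 463 genes, 215 higher and 248 lower after tenotomy. The smallest q-value in the authors' deposited table was 0.07415, shared by 6 genes: Ccl2, Mdk and Tfpi2 were listed at 0 after sham, and Myl2, Ankrd2 and Krt6b at 0 after tenotomy. With 1 pool a group, they carry no measure of how animals differ.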

How the data were processed

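RNA was sequenced from 1 pool per group. Per the labels' protocols, each library used 10 ng of RNA of integrity below 8, was depleted of ribosomal RNA, kept strand and was sequenced on a MiSeq in 75-base pairs. TopHat, Cufflinks and mm10 are named, without versions, in the submitters' processing notes; the annotation and any scaling between libraries are not stated there. The authors deposited expression values in the layout of Cuffdiff, taken here as FPKM. Their deposited p-values and q-values are printed unaltered.

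Log2 ratios used a pseudocount of 1 FPKM over entries at or above 5 FPKM in either library, called at 2-fold. Depth was estimated from whole-fragment steps of low FPKM values, for which 74.3% of 537 genes after tenotomy and 74.9% of 510 after sham came out whole. These shares are the best over all depths and length offsets tried. Evenly spread values would give 20% at a fixed depth and offset, which is not the level for a best fit. Intervals were not computed from the depth. In all, 72 lists were used (57 families and 15 marker lists), with 1869 entries found and 20 symbols not found. Members and lists were chosen with earlier results of these data known. Genes named are the 15 highest and 15 lowest single genes at 10 FPKM or more (small RNAs, predicted and mitochondrially encoded genes left out), up to 3 called members in each direction and the 2 most abundant of each list, and 10 fixed genes; the other members named or drawn were chosen after their values were seen. No list of mitochondrially encoded subunits could be described, since none of its symbols was matched. The calling step was tested on simulated fragments, which shows nothing of replicate error. Some genes are not reported here. Promoter windows are those of RefSeq (GRCm38.p6). A sterol regulatory element was also searched for and found for 1 of 15 cholesterol and fatty acid synthesis genes, against 1.44% of all genes. The NF-kB site was found for 1 of 13 chemokine genes, against 0.466% of all genes. The alternatives changed the pseudocount, floor, scaling, entries and list members, or took the authors' call. The tools were Python 3.11.15, pandas 2.3.3, NumPy 2.4.6 and matplotlib 3.10.9.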

Additional observations from a re-analysis of the deposited data

Results flagged for a closer look

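For 5 of the genes that the naming rule takes in, the adult and the neonatal ratio passed 2-fold in opposite directions, and in none was the difference between ages tested, since each group was 1 pool. Myh8, the perinatal myosin, stood in adults at 13.1 FPKM after tenotomy and 0.280 FPKM after sham (log2 ratio 3.46), and in neonates at 1.69 FPKM after tenotomy and 233 FPKM after sham (-6.44). Spp1 (osteopontin), a secreted phosphoprotein of bone and macrophages, stood in adults at 311 FPKM after tenotomy and 1131 FPKM after sham (-1.86), and in neonates at 146 FPKM after tenotomy and 19.4 FPKM after sham (2.85). Prg4 (lubricin), which coats gliding surfaces, stood in adults at 179 FPKM after tenotomy and 544 FPKM after sham (-1.60), and in neonates at 79.4 FPKM after tenotomy and 31.9 FPKM after sham (1.29). Serpine2 stood in adults at 55.4 FPKM after tenotomy and 168 FPKM after sham (-1.58), and in neonates at 70.5 FPKM after tenotomy and 28.9 FPKM after sham (1.26). Hmga1 had ratios of 4.22 in adults and -1.23 in neonates and its values are uncertain, as described above.

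Over all 8348 genes measured at both ages, 22 were higher in adults and lower in neonates, and 9 were lower in adults and higher in neonates. Among the 22 were further genes of developing muscle, named here after their values were seen. The muscle differentiation factor Myog stood in adults at 26.0 FPKM after tenotomy and 1.73 FPKM after sham, and in neonates at 0.711 FPKM after tenotomy and 15.05 FPKM after sham. The embryonic myosin Myh3 stood in adults at 33.3 FPKM after tenotomy and 6.24 FPKM after sham, and in neonates at 2.21 FPKM after tenotomy and 80.5 FPKM after sham. Actc1 (ratios 2.43 in adults and -4.05 in neonates), Tnnt2 (2.30 and -2.31, in the same order) and the myoblast fusion gene Tmem8c (2.71 and -1.92) went the same way. Fkbp5 was among the 9 and stood in adults at 16.9 FPKM after tenotomy and 39.8 FPKM after sham, and in neonates at 12.9 FPKM after tenotomy and 3.84 FPKM after sham. All 22 mature muscle genes were lower at both ages, beside these values, but their median ratio was -1.84 in adults and -7.68 in neonates.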

How the results depend on the processing

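The count of higher genes (866) moved to 420 with a pseudocount of 5 FPKM, 354 with a floor of 20 FPKM and 1333 with a floor of 1 FPKM or none. The count of lower genes (1067) moved to 619 with a pseudocount of 5 FPKM and 622 with a floor of 20 FPKM. Both were 0 by the authors' call. Genes past 2-fold in opposite directions at the 2 ages numbered 31, 14 with a pseudocount of 5 FPKM, 9 with a floor of 20 FPKM and 80 with a floor of 1 FPKM or none. Other settings kept these counts within 1.5 times. Of 266 called named genes 58 fell short of 2-fold with a pseudocount of 5 FPKM, 17 under the scaling that leaves out muscle genes and small RNAs, 7 with a common sum and 2 centred on the median, and no called gene turned its direction. No paired analysis was possible because each group is 1 pool, and no library could be left out. Low depth limits genes near the floor.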
